A study of Mus musculus with 6 samples.

Results

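The genes examined here encode receptors and adaptors through which cells detect nucleic acids. They are 10 named genes of the 55401 in the deposited count files, chosen by name for their roles in endosomal Toll-like receptor signalling and cytosolic DNA sensing: Tlr3, Tlr7, Tlr9, Unc93b1, Myd88, Tmem173, Irf3, Irf5, Trex1 and Samhd1. The rule itself used gene names and no measured value, but the genes were chosen with earlier results of these data known. Of the 10 genes, 9 had enough counts to be tested, with 26 to 1096 counts per sample, and Trex1 was listed at 0 in every sample. The data are bulk RNA-seq of the dorsal hippocampus of 6 male WT mice, which were littermates of Ts65Dn mice and therefore of mixed strain background. In 3 mice a Control-ASO was injected bilaterally into the dentate gyrus (DG), and in 3 mice a Snhg11-ASO, at 50 μg per hemisphere and 4 months of age, and the tissue was collected 3 days later. Snhg11-ASO is an antisense oligonucleotide against the long non-coding RNA Snhg11, and Control-ASO holds the same nucleotides in a scrambled order. Both groups therefore received a chemically modified oligonucleotide by the same surgery, and no uninjected sample was analysed here.

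Nucleic acids that reach the endosome are detected by Toll-like receptors. Tlr3 binds double-stranded RNA, Tlr7 binds single-stranded RNA, and Tlr9 binds DNA with unmethylated CpG dinucleotides, a ligand class that includes CpG-containing synthetic oligonucleotides with a phosphorothioate backbone. The chaperone Unc93b1 carries these receptors from the endoplasmic reticulum to the endosome, and Tlr7 and Tlr9 signal through the adaptor Myd88 to the transcription factor Irf5. In the cytosol, DNA activates the enzyme cGAS, whose product switches on the adaptor STING, encoded by Tmem173, which leads to phosphorylation of Irf3. Trex1 degrades cytosolic DNA and Samhd1 hydrolyses deoxynucleotides, and loss of either is known to cause an interferon response. In the brain, Tlr7, Tlr9, Unc93b1 and Tmem173 are known mainly from microglia and other macrophages.

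The promoters of 4 of these genes are shown because Myd88, Samhd1 and Irf5 were higher in all Snhg11-ASO samples, whereas Irf3 was not. They run from 250 bases before to 50 bases after the RefSeq start on GRCm38.p6, written 5′ to 3′ on the strand of the gene, and the RefSeq start of Myd88 lies inside the span that GENCODE gives the gene. Capitals mark matches, on either strand, to 3 motifs: the core of the interferon-stimulated response element, GAAANNGAAA, the gamma-activated site, TTCNNNGAA, and an NF-kB site, GGGNNTTTCC.
Myd88 (chr9:119339969-119340268, minus strand): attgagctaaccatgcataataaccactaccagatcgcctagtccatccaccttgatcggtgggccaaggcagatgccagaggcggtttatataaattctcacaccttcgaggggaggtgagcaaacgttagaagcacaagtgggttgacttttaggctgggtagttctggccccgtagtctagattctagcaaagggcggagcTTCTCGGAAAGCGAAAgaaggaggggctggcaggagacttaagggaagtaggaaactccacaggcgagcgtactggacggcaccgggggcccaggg
Samhd1 (chr2:157135047-157135346, minus strand): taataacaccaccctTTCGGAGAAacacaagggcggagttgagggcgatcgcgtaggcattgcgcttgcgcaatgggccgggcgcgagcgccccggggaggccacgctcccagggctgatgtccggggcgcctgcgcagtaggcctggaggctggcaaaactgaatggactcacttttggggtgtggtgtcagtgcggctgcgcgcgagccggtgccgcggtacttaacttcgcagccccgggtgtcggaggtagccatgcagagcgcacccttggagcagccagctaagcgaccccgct
Irf5 (chr6:29526375-29526674, plus strand): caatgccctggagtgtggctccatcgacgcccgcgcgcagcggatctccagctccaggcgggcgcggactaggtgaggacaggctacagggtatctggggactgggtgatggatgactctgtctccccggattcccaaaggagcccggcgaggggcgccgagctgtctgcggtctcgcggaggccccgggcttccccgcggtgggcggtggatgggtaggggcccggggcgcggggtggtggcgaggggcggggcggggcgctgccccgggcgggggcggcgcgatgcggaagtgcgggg
Irf3 (chr7:44997398-44997697, plus strand): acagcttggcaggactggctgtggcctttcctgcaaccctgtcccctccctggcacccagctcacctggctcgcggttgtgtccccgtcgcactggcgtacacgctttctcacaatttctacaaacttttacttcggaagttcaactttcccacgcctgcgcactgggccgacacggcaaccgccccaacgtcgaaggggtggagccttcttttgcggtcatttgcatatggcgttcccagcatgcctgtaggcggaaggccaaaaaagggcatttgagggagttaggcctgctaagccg
In Myd88 the 2 matches overlap, with GAAAGCGAAA starting 40 bases and TTCTCGGAA starting 46 bases before the transcript start. In Samhd1 a single gamma-activated site, TTCGGAGAA, starts 235 bases before the start. Irf5 and Irf3 hold none of the 3 motifs in this window. Of 32851 mouse promoters of the same length, 3.44% hold the first motif, 8.3% the second and 1.63% the third. RefSeq promoters were found for 7 of the 10 genes, and of those not printed Tlr3 holds 1 NF-kB match, GGGAGTTTCC, whereas Tlr9 and Trex1 hold no match. None was found for Tlr7, Unc93b1 or Tmem173, so these genes were not searched, although Tlr7 was also higher in all Snhg11-ASO samples. The 4 genes printed were picked by their values. Tlr9, which was also higher in all Snhg11-ASO samples, is not printed, nor is Tlr3, whose groups overlapped. A match is a run of letters and not a measured binding site.

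The libraries held 28951250 to 43997537 counts on genes. The targeted gene Snhg11 stood at 551, 436 and 209 CPM (counts scaled to library size, with TMM factors) with Control-ASO and at 139, 65.4 and 69.4 CPM with Snhg11-ASO, lower in every sample labelled as knocked down. The study's methods state that an outlying Snhg11-ASO sample was left out of its analysis, without naming it, whereas all 3 are kept here. Snhg11-ASO replicate 1 stood apart from the other 5 samples. Its Spearman correlations with them, taken across genes, were 0.955 to 0.959, against 0.979 to 0.991 among the others. Many results that rest on this library are therefore also given without it. Over all 19969 genes tested, edgeR's quasi-likelihood test called 0 genes at an adjusted p of 0.05, or 0%, while 8.11% had an unadjusted p under 0.05 and DESeq2 called 1.35% of the 18570 genes it tested. The targeted Snhg11 was itself not called by edgeR (log2 fold change -2.13, unadjusted p = 0.00172, adjusted p = 0.395). DESeq2 did call it (adjusted p = 3.79e-05).

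Tlr7, on the minus strand of chromosome X from 167304929 to 167330558 (GRCm38), had the largest fold change of the 3 endosomal receptors among the 10 genes. Replicates 1, 2 and 3 of Control-ASO gave 4.90, 8.59 and 8.58 CPM, and those of Snhg11-ASO 22.1, 10.1 and 12.6 CPM. Every Snhg11-ASO sample lay above every Control-ASO sample, and replicate 1 was far above the other 2. The mean was 7.36 ± 2.13 in Control-ASO and 14.9 ± 6.34 CPM in Snhg11-ASO (SD, n = 3 per group; exact permutation test, two-sided, p = 0.1, the lowest that 3 against 3 samples can give). Its log2 fold change reached 1.02 (SE, the standard error, 0.35; unadjusted p = 0.0223, adjusted p = 0.551, edgeR), so the difference did not pass the threshold over all genes. Without Snhg11-ASO replicate 1 it was 0.62, a fold of 1.54 in place of 2.03. Without Control-ASO replicate 1, in which Tlr7 was lowest, it was 0.79, and without both of these samples 0.40.

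**Figure D1:**
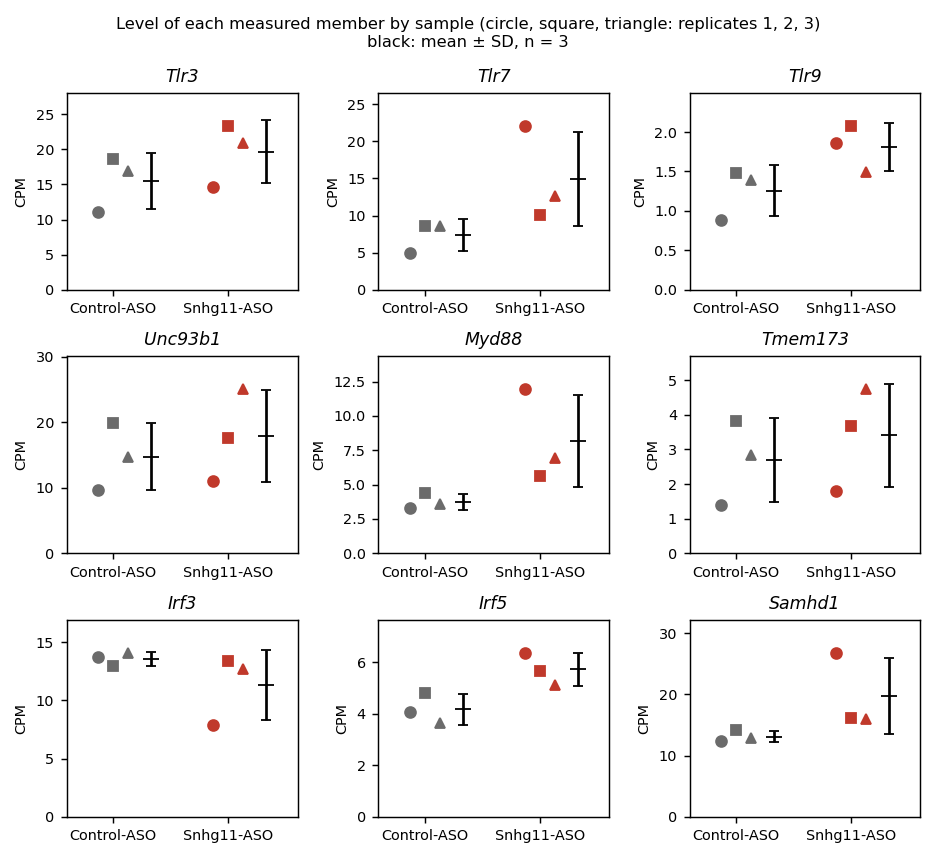
Level of the 9 measured genes in CPM (y axis, from 0) in the 3 Control-ASO (grey) and 3 Snhg11-ASO (red) samples, with circles, squares and triangles for replicates 1, 2 and 3 and black bars for the mean ± SD. Tlr7, Myd88, Irf5 and Samhd1 are separated between the groups, with replicate 1 highest in Snhg11-ASO, whereas the groups of Unc93b1, Tmem173, Tlr3 and Irf3 overlap.

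Tlr3, Tlr9 and their chaperone Unc93b1 had smaller fold changes than Tlr7. For Tlr3 the Control-ASO samples gave 11.01, 18.6 and 17.0 CPM, and the Snhg11-ASO samples 14.7, 23.4 and 20.9 CPM. Its groups overlapped, with Snhg11-ASO replicate 1 below 2 of the Control-ASO samples, and the log2 fold change was 0.34 (SE 0.25, adjusted p = 0.755, edgeR). In both groups replicate 1 was the lowest, and with the replicate number as a block the unadjusted p of Tlr3 went from 0.217 to 0.0311 (adjusted p = 0.546, edgeR). The labels do not pair the samples by number. Tlr9 was the least abundant, at 0.884, 1.49 and 1.40 against 1.86, 2.08 and 1.49 CPM, which rested on 26 to 87 counts per sample. The lowest Snhg11-ASO sample exceeded the highest Control-ASO sample only in the next decimal, and the log2 fold change was 0.52 (SE 0.29, adjusted p = 0.682, edgeR). Unc93b1 ranged widely within both groups, from 9.72, 19.9 and 14.6 CPM in Control-ASO to 11.1, 17.6 and 25.1 CPM in Snhg11-ASO. The difference of 0.28 on the log2 scale was smaller than its standard error of 0.35, and its sign turned without Snhg11-ASO replicate 3, to -0.043.

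Myd88, the adaptor below Tlr7 and Tlr9, had the largest fold change of the 9 genes. It lies on the minus strand of chromosome 9, from 119335934 to 119341411 on GRCm38, and 290 of its exonic bases overlap Acaa1a on the opposite strand, which strand-resolved counts keep apart. Control-ASO samples gave 3.26, 4.37 and 3.62 CPM, and Snhg11-ASO samples 11.96, 5.599 and 6.94 CPM. The groups did not overlap, and again replicate 1 was the highest. The mean was 3.75 ± 0.565 CPM in Control-ASO and 8.17 ± 3.35 CPM in Snhg11-ASO (SD, n = 3 per group; exact permutation test, p = 0.1), a log2 fold change of 1.12 (SE 0.31, unadjusted p = 0.00868, adjusted p = 0.498, edgeR). DESeq2 on the same counts gave an adjusted p of 0.0478, which passed the threshold, and Myd88 was the single one of the 9 genes for which it did so. Without Snhg11-ASO replicate 1 the log2 fold change was 0.74 (unadjusted p = 0.00722, edgeR), still with both groups apart. Over the 6 fits that left out a sample the unadjusted p of Myd88 stayed between 0.00387 and 0.0335.

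For Irf5, the transcription factor that Myd88 signalling activates, Control-ASO samples gave 4.08, 4.79 and 3.62 CPM. The Snhg11-ASO samples had 6.37, 5.65 and 5.13 CPM. Its groups did not overlap and, unlike for Myd88 and Tlr7, the spread within Snhg11-ASO was small, 1.24-fold between the highest and the lowest sample against 2.14-fold and 2.19-fold. The mean was 4.16 ± 0.587 CPM in Control-ASO and 5.72 ± 0.624 CPM in Snhg11-ASO (SD, n = 3 in each), which is a log2 fold change of 0.46 (SE 0.19, unadjusted p = 0.0490, adjusted p = 0.611, edgeR). Without Snhg11-ASO replicate 1 it was 0.37 (unadjusted p = 0.0733, edgeR). Of the edgeR fits that left out a sample, 1 gave Irf5 an unadjusted p under 0.05. Its exons overlap those of Tnpo3 on the opposite strand by 411 bases. With counts of both strands, which leave out reads from that overlap, the log2 fold change of Irf5 was 0.40 (unadjusted p = 0.0687, edgeR).

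For the cytosolic adaptor Tmem173 and its transcription factor Irf3 the groups overlapped. Tmem173 was measured at 1.39, 3.81 and 2.85 CPM in Control-ASO and at 1.81, 3.66 and 4.74 CPM in Snhg11-ASO samples. Replicate 1 was the lowest in each group, and the log2 fold change of 0.34 was below its standard error of 0.47 (adjusted p = 0.866, edgeR). Without Control-ASO replicate 1 the value was 0.03 and without Snhg11-ASO replicate 1 it was 0.64. Irf3 was the most even gene among the Control-ASO samples, at 13.7, 12.9 and 14.1 CPM. The Snhg11-ASO samples had 7.84, 13.3 and 12.7 CPM, so that replicate 1 lay far below and replicate 3 just below the lowest Control-ASO sample, while replicate 2 lay among them. The log2 fold change was -0.27 (SE 0.21, adjusted p = 0.773, edgeR), and -0.06 without Snhg11-ASO replicate 1. Irf3 was the only one of the 9 genes with a negative fold change in the fit of all samples.

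Of the enzymes that limit nucleic acids, Samhd1 was higher in Snhg11-ASO. It lies on the minus strand of chromosome 2, from 157097533 to 157135265 on GRCm38. Control-ASO samples had 12.3, 14.2 and 12.8 CPM, and Snhg11-ASO samples had 26.8, 16.2 and 16.0 CPM. The groups did not overlap, but replicates 2 and 3 lay close to the highest Control-ASO sample. The mean was 13.1 ± 0.937 CPM in Control-ASO and 19.7 ± 6.19 CPM in Snhg11-ASO (SD, n = 3 in each), which is a log2 fold change of 0.59 (SE 0.22, unadjusted p = 0.0336, adjusted p = 0.583, edgeR). It was 0.30 without Snhg11-ASO replicate 1, where the unadjusted p was 0.0247. For Trex1 no level could be given: all 1147 of its exonic bases, or 100%, are also exonic in Atrip on the same strand of chromosome 9, and the aligner counts reads on exons of more than 1 gene for neither. The value of 0 therefore says nothing about its expression.

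Of the 9 genes tested, 8 had a fold change above 0, where 51.7% of all tested genes did. At an unadjusted p under 0.05 there were 4 higher genes (Tlr7, Myd88, Irf5 and Samhd1) and 0 lower ones, where 3.68% of all tested genes were higher and 4.43% lower at that level. Without Snhg11-ASO replicate 1 there were 3 (Tlr7, Myd88 and Samhd1), where 4.41% of all genes were higher and 9.94% passed in either direction. In that fit Tlr7 lay at the threshold, with an unadjusted p that rounds to 0.05 (edgeR). With the replicate number as a block there were 3 (Tlr3, Myd88 and Samhd1), and 3.99% of all genes were higher. Groups did not overlap in the higher direction for 5 of the 9, with Tlr9 as the fifth, against 7.73% of all tested genes, and in the lower direction for 0, against 7.7%. The adjusted p of edgeR passed for 0 of the 9. DESeq2 called 1, where it called 0.549% of its genes as higher. The median log2 fold change of the 9 genes was 0.46 and that of all tested genes 0.01, and without Snhg11-ASO replicate 1 the median of the 9 was 0.51. Control-ASO replicate 1 had the lowest level of 7 of the 9 genes, and without both samples numbered 1 the median of the 9 was 0.31. In the fits without 1 of the samples, 1 to 3 of the 9 genes had an unadjusted p under 0.05. The count was 1, Myd88, without Control-ASO replicate 1, and 2, Tlr7 and Myd88, without Control-ASO replicate 3. Among these fits the share of all genes was taken only for that without Snhg11-ASO replicate 1.

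**Figure D2:**
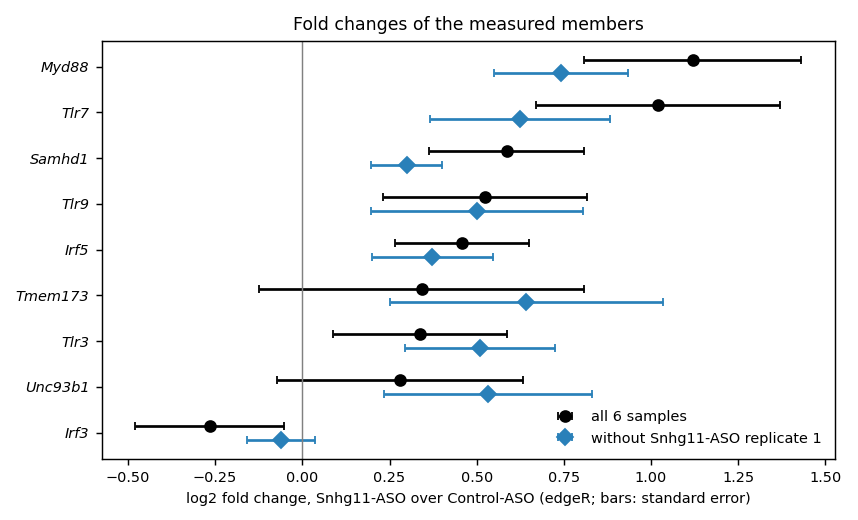
Log2 fold change of Snhg11-ASO over Control-ASO (x axis) for the 9 measured genes, with bars for the standard error, from all 6 samples (black circles) and without Snhg11-ASO replicate 1 (blue diamonds). Leaving out that sample brings Myd88 from 1.12 to 0.74, Tlr7 from 1.02 to 0.62 and Samhd1 from 0.59 to 0.30, while Tmem173, Tlr3 and Unc93b1 move upward.

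Levels were also compared between genes per length, as CPM per kilobase of merged exons (RPKM). In the Control-ASO samples Unc93b1 was the highest at 4.87 RPKM, followed by Irf3 at 3.94, Tlr3 at 2.98 and Tlr7 at 1.80. Myd88, Irf5 and Samhd1 followed at 1.46, 1.43 and 1.43, and Tmem173 was at 0.979 and Tlr9 at 0.361 RPKM. Unc93b1 spread from 3.21 to 6.56 and Irf3 from 3.76 to 4.10 RPKM, so these neighbours did not differ beyond their spread. Tlr3, at 2.12 to 3.57 RPKM, lay below every Irf3 value, and its lowest sample lay just above the highest of Tlr7, at 2.11. Tlr7, Myd88, Irf5, Samhd1 and Tmem173 overlapped their neighbours in this order, whereas Tlr9, at 0.254 to 0.427 RPKM, lay below them all. In the Snhg11-ASO samples Tlr7 averaged 3.66 and Myd88 3.17 RPKM, near Tlr3 at 3.77 and Irf3 at 3.28 RPKM.

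The samples also differed in markers of the cells known for these genes, of which the single genes named here were chosen after their values were seen. In bulk tissue fewer cells of a type and less RNA per cell cannot be told apart. All 15 microglial markers were tested and none was at 0. Their summed level ranged from 380 to 774 CPM in Control-ASO and from 298 to 858 CPM in Snhg11-ASO, with 8 of 15 higher and 7 lower, and 0 at an unadjusted p under 0.05. Without Snhg11-ASO replicate 1, 13 of the 15 were higher and 1 passed at that level, and the median log2 fold change of the markers went from 0.06 to 0.31, beside the 0.46 and 0.51 of the 9 genes. The lowest sum was that of Snhg11-ASO replicate 1, where 10 of the 15 markers had their lowest level of all samples. P2ry12, a purinergic receptor of resting microglia, had 23.8, 51.99 and 36.8 CPM in Control-ASO and 5.46, 40.2 and 48.5 CPM in Snhg11-ASO samples. Itgam, an integrin shared by microglia, monocytes and neutrophils, was instead highest in that sample at 18.3 CPM, against 5.30 to 10.1 in Control-ASO. Markers of border macrophages summed to 9.59 to 14.5 CPM in Control-ASO and to 93.5, 7.82 and 10.9 CPM in Snhg11-ASO replicates 1, 2 and 3. F13a1, of this list, was at 69.5 CPM in replicate 1 and made up most of that sum. Mrc1, Cd163, Lyve1 and Pf4 were also highest in that sample. Ms4a7, Clec12a and Cbr2 were not, at 0.629, 0.446 and 0.341 CPM, within or below their Control-ASO range. Of 10 markers of monocytes and neutrophils, 6 were tested, with sums of 39.4 to 48.9 CPM in Control-ASO and of 118, 51.0 and 43.3 CPM in Snhg11-ASO. Vcan alone gave 34.8 to 46.9 CPM of the sums in Control-ASO and 72.5, 44.2 and 38.6 CPM in Snhg11-ASO, and the other 5 markers summed to 1.99 to 5.07 and to 46.0, 6.84 and 4.67 CPM. S100a8, a calcium-binding protein of neutrophils, was at 22.3 CPM in replicate 1 and at no more than 1.05 CPM in any other sample, whereas the neutrophil marker Ly6g had 0 counts in 4 of the 6 samples and at most 5. Ly6c2, a monocyte marker, was higher in all Snhg11-ASO samples, at 2.89, 1.603 and 1.79 CPM against 0.306, 0.535 and 0.564 CPM (unadjusted p = 7.15e-04, adjusted p = 0.308, edgeR). It was the only 1 of the 6 tested markers of its list whose groups did not overlap. Ccr2, also of that list, had 2.28, 2.225 and 1.24 CPM in Snhg11-ASO against 2.11, 0.684 and 1.51 CPM in Control-ASO. Astrocyte and oligodendrocyte markers were also lowest in Snhg11-ASO replicate 1, at -0.76 and -0.86 in mean log2 CPM relative to Control-ASO. Microglial markers stood at -1.16, endothelial at 0.32 and neuronal at -0.11 there. In Control-ASO replicate 1 astrocyte, oligodendrocyte and microglial markers were at -0.40, -0.36 and -0.55. Choroid plexus markers summed to 1891, 36.2 and 1227 CPM in Control-ASO and to 1294, 122 and 66.0 CPM in Snhg11-ASO. The part of these cells in the differences of Tlr7, Myd88, Irf5 and Samhd1 was not tested.

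**Figure D3:**
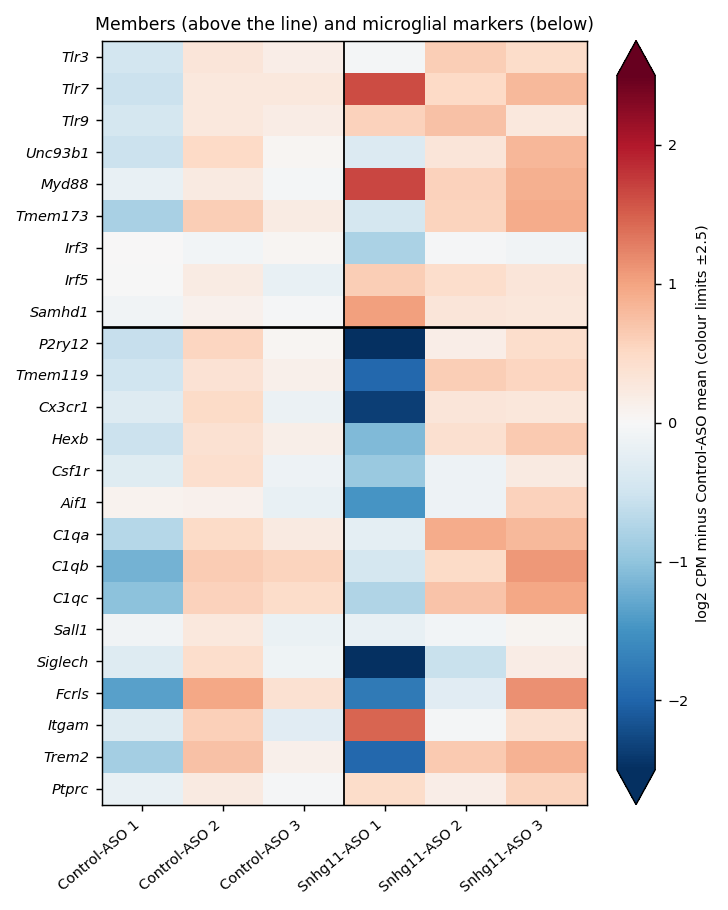
Log2 CPM minus the Control-ASO mean (colour, limits ±2.5) for the 9 measured genes (above the line) and 15 microglial markers (below) in the 6 samples (columns). In Snhg11-ASO replicate 1 Tlr7 stands at 1.63 and Myd88 at 1.67 while P2ry12, Cx3cr1 and Siglech are at their lowest; Unc93b1 and Tmem173 are low there and in Control-ASO replicate 1.

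Set against the mean log2 CPM of the microglial markers in the same sample, the genes fell into different patterns. Unc93b1 lay at -0.84, -0.84 and -0.87 relative to this mean in the Control-ASO samples, although its CPM varied 2.05-fold among them, and at -0.04, -0.76 and -0.61 in the Snhg11-ASO samples. Tmem173 lay at -3.60, -3.21 and -3.21 against -2.62, -3.00 and -3.00. Tlr7 lay at -1.83, -2.05 and -1.64 against 0.95, -1.55 and -1.61. For these 3 genes the relative levels of the groups did not overlap (exact permutation test, p = 0.1 each), with differences of 0.38, 0.46 and 1.10. Without Snhg11-ASO replicate 1 these differences were 0.17, 0.34 and 0.26. The share of all tested genes whose groups separate on this relative measure was not determined, so the 3 genes have no reference to be set against. Samhd1 lay at -0.50, -1.33 and -1.06 against 1.23, -0.87 and -1.26, and Irf5 at -2.09, -2.88 and -2.87 against -0.83, -2.38 and -2.89. Both overlapped, with differences of 0.66 and 0.58 (exact permutation test, p = 0.6 and 0.7) that turned to -0.10 and -0.03 without Snhg11-ASO replicate 1. Myd88 differed by 1.17, with -2.40, -3.01 and -2.87 against 0.07, -2.39 and -2.46 (exact permutation test, p = 0.2), and by 0.33 without that sample. The relative level of each of the 9 genes was highest in Snhg11-ASO replicate 1 except that of Irf3, and the marker mean itself was lowest there, at 3.52 against 4.13 to 5.27 in the other samples.

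Other genes of the same pathway were read from 7 lists. For the counts below, 3.68% of all tested genes were higher and 4.43% lower at an unadjusted p under 0.05. The share higher was 4.41% without Snhg11-ASO replicate 1 and 3.99% with the replicate block. Among 18 tested partners of the endosomal receptors, 13 were higher and 5 lower, with a median log2 fold change of 0.27; 3 were higher and 0 lower at an unadjusted p under 0.05, and 7 higher with the replicate block. The proteases Ctsb and other cathepsins trim these receptors, and Ctsb, the most abundant gene of the list, had a log2 fold change of 0.34 (SE 0.24, adjusted p = 0.749, edgeR), while the endolysosomal exonuclease Pld3 had -0.07. The smallest p-values were those of Slc15a3, an endolysosomal peptide transporter, and of Tlr13, the mouse receptor for bacterial ribosomal RNA. Slc15a3 had 2.38, 3.72 and 2.79 CPM against 11.5, 7.59 and 4.92 CPM (log2 fold change 1.43, SE 0.35, adjusted p = 0.465, edgeR; adjusted p = 0.0107, DESeq2). Tlr13 had 4.62, 6.51 and 7.18 CPM against 32.7, 9.69 and 10.9 CPM (log2 fold change 1.54, SE 0.49, adjusted p = 0.543, edgeR), and its log2 fold change was 0.75 without replicate 1. Tlr8, an endosomal receptor for RNA named after its value was seen, had 1.14 with all samples and -0.08 without replicate 1. As with Tlr7, every Snhg11-ASO sample of Slc15a3 and Tlr13 lay above every Control-ASO sample and replicate 1 was the highest. The groups of Tlr8 overlapped.

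The 8 receptors and co-receptors of the cell surface, which do not bind nucleic acids as their main ligand, had a median of 0.66, with 7 higher. Tlr2, a receptor for bacterial lipoproteins, stood at 3.88, 4.10 and 3.30 CPM with Control-ASO against 10.99, 8.997 and 7.19 CPM with Snhg11-ASO. Its log2 fold change of 1.27 had the smallest p-value in all 7 lists (SE 0.21, unadjusted p = 5.40e-04, adjusted p = 0.308, edgeR; adjusted p = 5.6e-05, DESeq2). Tlr4, the lipopolysaccharide receptor, was also higher in every Snhg11-ASO sample. The log2 fold change of Tlr4 was 1.04 (SE 0.30, adjusted p = 0.498, edgeR), and 0.68 without Snhg11-ASO replicate 1. Its co-receptor Cd14 reached 32.2 CPM in Snhg11-ASO replicate 1 but 2.06 and 3.12 CPM in replicates 2 and 3, within the Control-ASO range of 1.19 to 3.64 CPM, and its log2 fold change went from 2.39 to 0.13 without replicate 1, while that of Ly86 was -0.27 on the log2 scale. Both Tlr2 and Tlr4 were in the list at an unadjusted p under 0.05, as were 2 of 8 without Snhg11-ASO replicate 1.

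All 22 kinases, adaptors and transcription factors that relay the signal had fold changes above 0, with a median of 0.25, and 3 had an unadjusted p under 0.05. Without Snhg11-ASO replicate 1 there were 17 above 0, 1 with an unadjusted p under 0.05, and a median of 0.10. Tbk1, the kinase that phosphorylates Irf3, and Chuk, a kinase of the NF-kB pathway, were the most abundant and had log2 fold changes of 0.28 and 0.14 (adjusted p = 0.708 and 0.733, edgeR). Tirap, the adaptor that brings Myd88 to surface receptors, had 2.55, 2.79 and 3.15 against 5.56, 4.55 and 3.99 CPM (log2 fold change 0.73, SE 0.21, adjusted p = 0.507, edgeR). Irf1 had a log2 fold change of 1.10, and 0.40 without Snhg11-ASO replicate 1, with 33.02 CPM in replicate 1 and 12.4 and 10.7 CPM in replicates 2 and 3, next to the highest Control-ASO sample at 10.4 CPM.

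Of 18 tested genes of cytosolic DNA sensing, 13 were higher and 5 lower, with a median of 0.71 that was 0.20 without Snhg11-ASO replicate 1. The median was 0.05 without both samples numbered 1. At an unadjusted p under 0.05 there were 7 higher and 0 lower, and 5 and 0 without that sample. The lowest p-values belonged to Mndal and Ifi203, interferon-inducible genes of the Ifi200 family, whose members resemble each other in sequence, so that reads may be lost or shared between them. Mndal had 3.64, 5.23 and 3.74 CPM against 11.7, 9.64 and 7.72 CPM (log2 fold change 1.204, SE 0.23, adjusted p = 0.358, edgeR; adjusted p = 9.15e-04, DESeq2). Ifi203 had a log2 fold change of 1.69 (SE 0.35, adjusted p = 0.408 in edgeR and 5.98e-04 in DESeq2), and 1.31 without Snhg11-ASO replicate 1. Trim32 and Pqbp1, the most abundant of the list, were at 0.03 and -0.02. Cgas, the enzyme upstream of STING and named here after its value was seen, had 1.496, 1.31 and 1.46 CPM against 3.36, 2.06 and 1.74 CPM (log2 fold change 0.75, SE 0.31, unadjusted p = 0.0448, adjusted p = 0.599, edgeR). Its log2 fold change was 0.42 without Snhg11-ASO replicate 1 (unadjusted p = 0.0909, edgeR).

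All 13 genes of cytosolic RNA sensing had fold changes above 0, with a median of 0.97, and 6 had an unadjusted p under 0.05. The median was 0.99 and the count 8 when Snhg11-ASO replicate 1 was left out, and the median was 0.65 without both samples numbered 1. Trim25, a ubiquitin ligase of the RIG-I pathway, had 5.47, 8.62 and 8.88 CPM against 19.2, 14.4 and 12.6 CPM (log2 fold change 1.01, SE 0.24, adjusted p = 0.465 in edgeR and 0.0195 in DESeq2). Ifih1, the sensor MDA5 for long double-stranded RNA, had 8.91, 17.9 and 23.4 CPM against 40.8, 45.3 and 31.9 CPM (log2 fold change 1.23, SE 0.34, adjusted p = 0.492 in edgeR and 0.0291 in DESeq2). The interferon-inducible Eif2ak2 and Oasl2 were the most abundant, with log2 fold changes of 0.86 and 1.09 (adjusted p = 0.638 and 0.682, edgeR). In all 4 of these genes Control-ASO replicate 1 had the lowest level, and the groups of Oasl2 overlapped.

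The 7 tested genes of nucleic acid clearance and editing had a median of 0.03, with 4 higher and 3 lower. Adar, which edits adenosine in double-stranded RNA and limits its detection by MDA5, was lower in every Snhg11-ASO sample, at 96.8, 93.1 and 81.5 CPM against 135, 119 and 124 CPM. The difference on the log2 scale was -0.48 (SE 0.10, unadjusted p = 0.00210, adjusted p = 0.415, edgeR; adjusted p = 0.0235, DESeq2). Pnpt1, a mitochondrial RNA exonuclease, was at 0.36 (SE 0.12, adjusted p = 0.550, edgeR) and Skiv2l, a helicase of the cytosolic exosome, at 0.03.

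The 14 tested genes of interferon and inflammatory output were all above 0, with a median of 1.32, and 5 had an unadjusted p under 0.05. With the replicate block there were 11, and without Snhg11-ASO replicate 1 there were 3, 12 of the 14 were above 0 and the median was 1.09. Without both samples numbered 1 the median was 0.69. Il1b, an inflammatory cytokine named after its value was seen, went from 1.86 to -1.13 on the log2 scale without Snhg11-ASO replicate 1. Rsad2, which encodes the antiviral enzyme viperin, had 5.75, 10.3 and 12.4 CPM against 45.4, 25.3 and 17.6 CPM (log2 fold change 1.63, SE 0.41, adjusted p = 0.479 in edgeR and 0.00630 in DESeq2). Its log2 fold change was 1.17 without Snhg11-ASO replicate 1. Ccl2, a chemokine for monocytes, had 1.02, 1.31 and 1.31 CPM against 16.2, 3.92 and 2.08 CPM (log2 fold change 2.60, SE 0.75, adjusted p = 0.507 in edgeR and 0.00975 in DESeq2), and its log2 fold change was 1.30 without replicate 1. Ifit3 and Ifit1, the most abundant, had log2 fold changes of 0.90 and 1.28 (adjusted p = 0.698 and 0.618, edgeR). Over the 7 lists edgeR called 0 genes at an adjusted p of 0.05 in either direction. DESeq2 called 4 higher genes of cytosolic DNA sensing, 2 of cytosolic RNA sensing and 2 of this output list. It called 1 higher gene each of the endosomal partners and the cell-surface list, 0 of the signal relay, and 1 lower gene, Adar. Among all its genes it called 0.549% as higher.

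**Figure D4:**
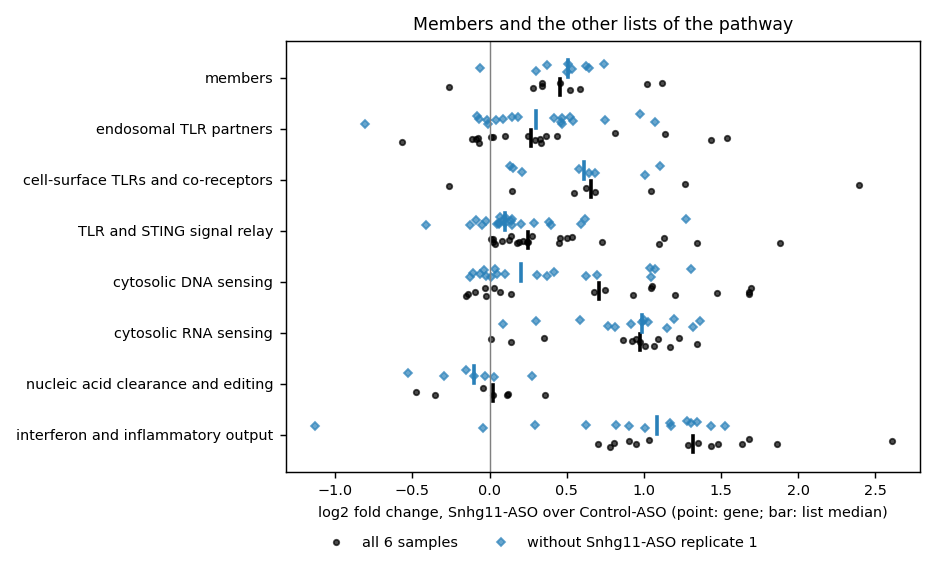
Log2 fold change of Snhg11-ASO over Control-ASO (x axis) for the 9 measured genes and the tested genes of the 7 other lists (rows; 1 point per gene, bar for the median), from all 6 samples (black) and without Snhg11-ASO replicate 1 (blue). The median for cytosolic RNA sensing stays at 0.97 and 0.99, that for cytosolic DNA sensing goes from 0.71 to 0.20, and that of the 9 genes from 0.46 to 0.51. Without both samples numbered 1, which is not drawn, these medians were 0.65, 0.05 and 0.31.

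The tested genes outside these lists whose pattern over the 6 samples lay nearest to the mean of the 9 genes, by Euclidean distance between centred and scaled log2 CPM, were Pdhx, Cenpb, Ncf1, Galnt6 and Pnp, at distances of 0.859 to 0.899. Ncf1, a subunit of the phagocyte NADPH oxidase, had 7.24, 12.8 and 9.65 CPM in Control-ASO and 13.7, 13.9 and 14.7 CPM in Snhg11-ASO samples. In this mean pattern Control-ASO replicate 1 was low and the 3 Snhg11-ASO samples were alike, unlike in Tlr7 and Myd88, where Snhg11-ASO replicate 1 stood above the rest.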

How the data were processed

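Bulk RNA-seq was measured in the dorsal hippocampus of 3 Control-ASO and 3 Snhg11-ASO mice. The authors aligned paired reads to mm10 (GRCm38) with STAR 2.5.2a and deposited raw counts per gene, without normalization or pooling; their methods name Rsubread for counting, while the files hold STAR's own layout. Lines that name no gene held 43.5% to 51.4% of read pairs and were left out. Counts of the reverse strand, 96.2% to 96.8% of strand-resolved counts, were used, with symbols and exon lengths from GENCODE M21 (55141 of 55401 identifiers matched). Genes were filtered with filterByExpr (minimum count 10), scaled with TMM, and tested by quasi-likelihood in edgeR 4.0.16 (R 4.3.3), and p-values of all 19969 tested genes were adjusted after Benjamini-Hochberg, at 0.05. Standard errors were obtained as the log2 fold change over the root of the F statistic, and log2 CPM used a prior count of 2. Methods were tested on simulated data.

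Alternatives were DESeq2 1.42.0, its size factors, other filters, both strands, a replicate block and leaving out samples. DESeq2 without each Control-ASO sample, edgeR without both samples numbered 1, and levels relative to microglial markers without Snhg11-ASO replicate 1, were chosen after seeing the data. The pairing of replicate numbers was checked by correlating how samples of one number deviate from their groups. This gave 0.297, 0.179 and 0.103 for equal numbers, against -0.285 to 0.188 for unequal numbers. The 0.188, for Control-ASO 2 with Snhg11-ASO 3, exceeded 0.179 and 0.103, so the values did not establish a pairing. The labels give none either, and the replicate block is read only as an alternative fit. The genes, lists and tests were chosen with earlier results of these data known. Genes named from the other lists are the 2 most abundant per length and the 2 with the lowest unadjusted p in each; any other name is marked as picked with its value known. The labels do not tie samples to separate litters or days, so p-values measure the spread between these mice.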

Additional observations from a re-analysis of the deposited data

Results flagged for a closer look

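Reads on the strand opposite to Irf5, which the comparisons did not use, averaged 13.5 CPM in Control-ASO and 15.2 CPM in Snhg11-ASO (15.24 in full), and the lowest Snhg11-ASO sample, at 15.1 CPM, exceeded the highest Control-ASO sample, at 14.0 CPM. Irf5 exons overlap those of Tnpo3 on that strand by 411 bases. Groups of 3 samples are too small for the test of a single outlying value within a group, which was not run.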

How the results depend on the processing

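The number of genes called over the whole table was 0 in edgeR with each scaling, filter and strand setting and with the replicate block, and 0 to 2 with a sample left out, the 2 arising without Snhg11-ASO replicate 1. DESeq2 called 251 genes, 346, 268 and 216 without Snhg11-ASO replicates 1, 2 and 3, and 83, 348 and 119 without Control-ASO replicates 1, 2 and 3; the cause was not tested. Of the 10 genes, DESeq2 called 1, Myd88, with all samples (log2 fold change 1.11, adjusted p = 0.0478) and 1, again Myd88, without Snhg11-ASO replicate 2 (log2 fold change 1.32, adjusted p = 0.0121), and over all 19 settings with an adjusted p that of Myd88 ranged from 0.0121 to 0.979. At an unadjusted p under 0.05 there were 1 to 3 of the 10 in edgeR with a sample left out, and DESeq2 gave 2 when Control-ASO replicate 1 was left out and 2 when Control-ASO replicate 3 was. Except for edgeR without Snhg11-ASO replicate 1, no share of all genes was taken to set beside these counts. With the replicate block the count was 3 in place of 4, the log2 fold changes were 1.05 for Myd88, 0.97 for Tlr7, 0.54 for Samhd1, 0.46 for Irf5, 0.35 for Tlr3 and Tmem173, 0.54 for Tlr9, 0.26 for Unc93b1 and -0.30 for Irf3, and no adjusted call changed. Unc93b1 reversed without Snhg11-ASO replicate 3, to -0.043 in edgeR and -0.046 in DESeq2, and over the fits with a sample left out its log2 fold change ranged from -0.043 to 0.557. Relative to microglial markers and without Snhg11-ASO replicate 1, Irf5 and Samhd1 reversed, to -0.025 and -0.101. Fold changes of 5 of the 9 genes stayed above 0 in each of the 21 settings. With 26 to 87 counts per sample, Tlr9 was the gene most limited by depth.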

Other observations

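The transcripts of the type I interferons themselves were at the limit of the counts. Ifnb1 had 1 count in Control-ASO replicate 3 and 0 in the other samples, Ifna1 had 0 counts in all samples, and Ifna2 and Ifna4 each had 1 count in Snhg11-ASO replicate 1. Of 10 markers of lymphocytes and plasmacytoid cells, 2 passed the filter on low counts, Cd79b and Ccr9, and Klk1 was at 0 in all samples.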
